A study of Mus musculus with 12 samples.

Results

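Cytosolic ribosomal proteins are the protein components of the ribosomes that translate nuclear-encoded mRNAs. Their genes were chosen by symbol alone, as Rpl or Rps followed by a digit together with Rpsa, Rplp0, Rplp1 and Rplp2, with pseudogene symbols and the Rps6k kinases left out. This gave 73 of the 10697 genes measured, of which 43 carry large-subunit symbols and 30 small-subunit symbols. The mouse annotation (GENCODE, genome build GRCm38) holds 86 protein-coding genes that meet the same rule, and the other 13, Rps6, Rps27a and Rpl10a among them, were not analysed here. One member by symbol, Rps19bp1, encodes a protein that binds RPS19 and is not a structural part of the ribosome, and 6 members are paralogs that can stand in for, or closely resemble, a core protein.

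The study asked how thymol, a phenolic monoterpene of thyme and oregano, changes gene expression in primary mouse adult fibroblasts (MAFs), cells that grow out of tissue biopsies placed in culture. All cells were wild type (WT) and came from C57BL6/j mice. 6 libraries, labelled Thymol100, came from cells given 100 µM thymol for 24 h, and 6 libraries, labelled DMSO, came from cells given the same volume of the solvent alone, so the solvent was present in both groups. The age of the mice, the number of animals and whether the numbered libraries came from separate cultures are not given in the labels, so p-values measure the spread between these libraries, which may be technical.

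A ribosome needs close to equal numbers of each ribosomal protein, and cells coordinate their supply largely at the level of translation. The mRNAs of most ribosomal proteins begin with a cytosine followed by a run of pyrimidines, the 5′ terminal oligopyrimidine (TOP) tract, through which mTORC1, the nutrient-sensing kinase complex, raises or lowers their translation without necessarily changing their amount. mTORC1 also restrains autophagy, the recycling process at the centre of the study, and ribosomes themselves are recycled by it. mRNA levels of these genes therefore report on transcript abundance and not on translation or on the number of ribosomes.

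Libraries were made from the 3′ ends of polyadenylated RNA, so that each transcript yields about 1 position of reads whatever its length, and values are log2 CPM, reads per gene set against the size of the library. Library totals, recovered from the deposited values, ran from 5435985 to 9049796 reads. Of the fibroblast markers, 10 of 12 were in the table, at a summed 9701 to 10488 CPM with thymol and 10940 to 11756 CPM with DMSO, and Col1a1 (log2 fold change -0.28) and Col3a1 (-0.54) were lower with thymol. All 12 macrophage markers were present as well, at a summed 15102 to 18422 CPM with thymol and 15063 to 16616 CPM with DMSO. Of these, 6 had a positive log2 fold change, and the 2 that passed the test, Cd14 (-0.78) and Itgam (-0.31), were lower. Of the 6 endothelial markers 2 were in the table, at no more than 9.77 CPM in sum in any library, and none of the 6 epithelial or 6 lymphocyte markers was. Of 6 skeletal muscle markers 2 were in the table, with Acta1 lower (-0.45), and of 6 adipocyte markers 1 was. The part of these marker changes in the values below was not tested, and in such bulk RNA fewer cells of a type and less RNA per cell cannot be told apart.

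No ribosomal protein transcript changed past the test with thymol. Of the 73 genes, 0 passed an adjusted p of 0.05 (limma, Benjamini-Hochberg adjustment over all 10697 genes), against 238 genes or 2.22% of the whole table, 70 of them higher (0.654%) and 168 lower (1.57%). Without the mean-variance trend 57 genes of the table passed and still 0 of the 73. At an unadjusted p under 0.05 there were 3 of 73, or 4.11%, Rpl23 and Rpl27a among them, against 11.8% of all genes. By limma voom on the recovered reads 0 of 73 passed as well, and 4 had an unadjusted p under 0.05. No ribosomal protein gene had its 6 thymol libraries all on one side of its 6 DMSO libraries, which 1.68% of all genes had. The estimates nonetheless leaned upward: 56 of 73 log2 fold changes (76.7%) were above 0, against 50.9% of all genes, a count of 51 after centring all libraries on their own medians, and of 43 in the odd-numbered and 53 in the even-numbered libraries alone. The median log2 fold change was 0.046, about a 1.03-fold difference, against 0.0026 over all genes. No test was made of these 2 figures, since the genes are not replicates of the treatment. The lean was not particular to these genes: 33 of 44 translation initiation factors and 61 of 93 ribosome biogenesis factors were also above 0. Other lists, given below, did not lean upward.

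How large a change the data leave room for depended on the level of the gene. For 36 of the 73 genes the 95% interval of the log2 fold change lay within 0.25 of zero on either side, for 54 it lay within 0.5 and for 71 within 1. These are limma intervals, with each gene's spread drawn toward the trend over all genes, and do not rest on its own libraries alone. In the 22 genes with a mean above 8 log2 CPM, the 22 fold changes were positive, from 0.0026 (Rps9) to 0.11, with standard errors of 0.047 to 0.075. That count was 20 after median centring, where Rps9 and Rpl14 fell below 0, 21 by voom, 19 to 22 without any 1 library, 15 in the odd-numbered libraries alone and 20 in the even-numbered ones. In the 23 genes between 5 and 8 log2 CPM, 19 were positive, from -0.042 (Rpsa) to 0.20 (Rpl23). In the 28 genes below 5 log2 CPM, 15 were positive and the range widened to -0.32 and 0.61 (Rpl36), with standard errors of 0.13 to 0.36 and means of 26.9 to 216 reads per library. The widest fold changes thus sat in the genes with the fewest reads. The share of positive fold changes over all genes was not counted within these level bands. Among genes above 5 log2 CPM, 41 of 45 (91.1%) were positive, against 51.6% of all genes above that level. The 41 became 30 in the odd-numbered libraries alone, 37 in the even-numbered ones, 37 after median centring and 36 to 42 without any 1 library.

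**Figure D1:**
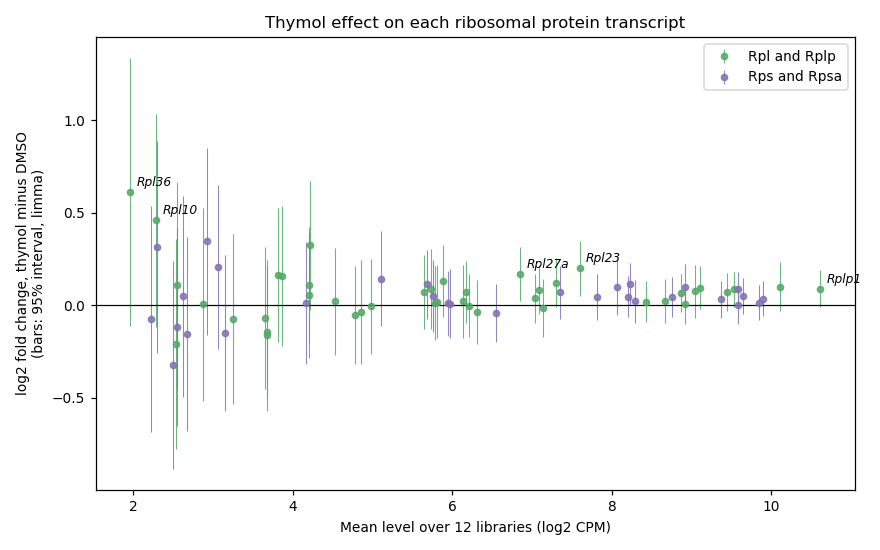
Log2 fold change (thymol minus DMSO, vertical axis) of each of the 73 ribosomal protein genes against its mean level over 12 libraries (log2 CPM, horizontal axis), with bars for the 95% limma interval. Points narrow toward a line slightly above 0 as the level rises, and the 22 genes above 8 log2 CPM lie between 0.0026 and 0.11, the lowest 2 of them dropping below 0 after median centring.

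Levels themselves were far from equal. Means over the 12 libraries ran from 1.97 log2 CPM for Rpl36 to 10.61 log2 CPM for Rplp1, a 401-fold range, with a median of 5.95 log2 CPM against 5.02 log2 CPM over all genes. The large-subunit median was 5.81 log2 CPM and the small-subunit median 6.26 log2 CPM. Median fold changes were 0.066 for the large subunit, with 32 of 43 positive, and 0.045 for the small subunit, with 24 of 30 positive. Over all genes 50.9% were positive.

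**Figure D2:**
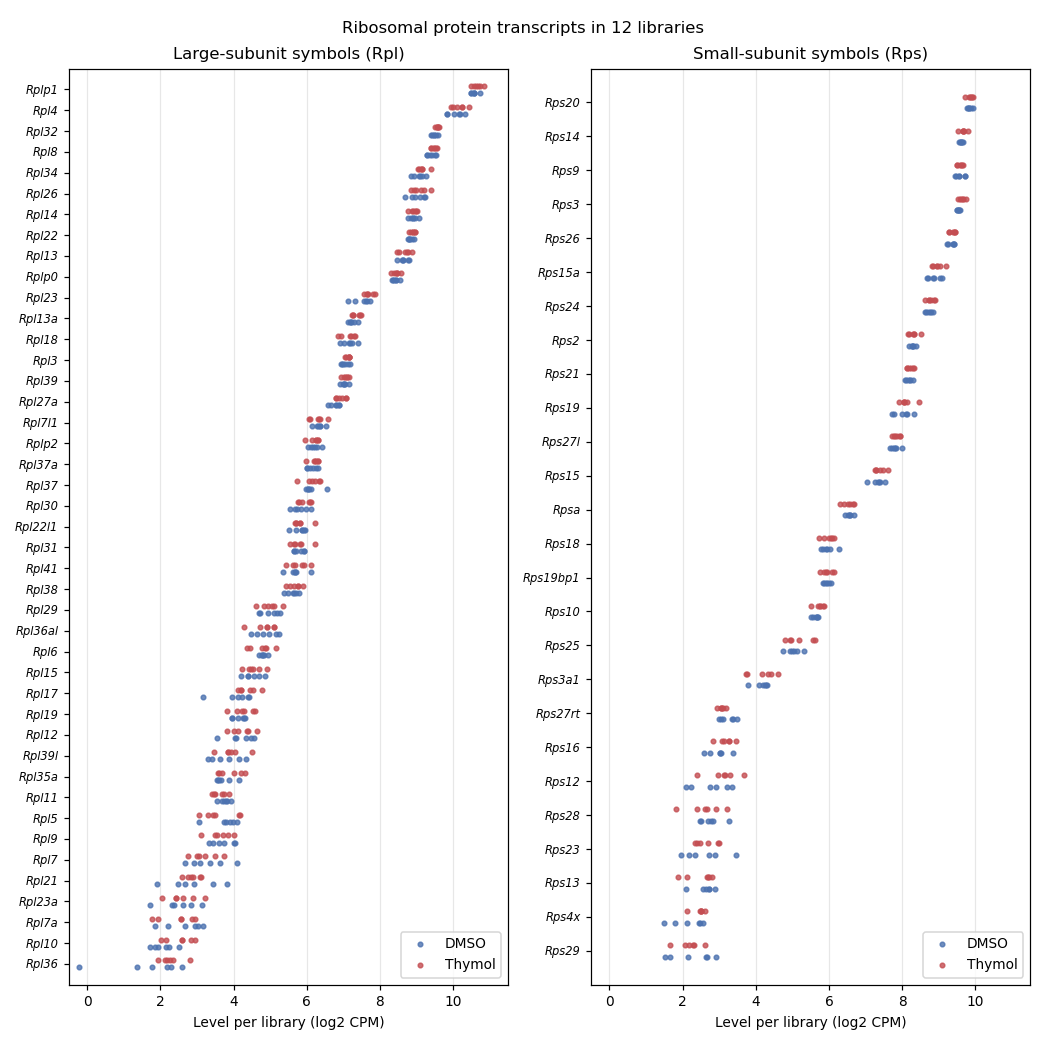
Level of 69 of the 73 ribosomal protein genes in each of the 12 libraries (log2 CPM), large-subunit symbols on the left and small-subunit symbols on the right, ordered by mean, with DMSO in blue and thymol in red. The colours overlap in every row, and the spread between libraries grows toward the bottom, where Rpl36 has a DMSO library at -0.22.

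The P-stalk is the flexible arm of the large subunit that recruits and activates the elongation factors, built from Rplp0, Rplp1 and Rplp2 on a base that includes Rpl12. Rplp1 was the most abundant transcript of all 73, with a lowest, median and highest value of 10.48, 10.66 and 10.84 log2 CPM with thymol and 10.49, 10.56 and 10.72 log2 CPM with DMSO. The groups overlapped, and its log2 fold change of 0.089 ± 0.051 (SE, n = 6 per group) had an adjusted p of 0.52. Its partner Rplp2, which binds the stalk in a dimer with RPLP1, stood far lower, at 5.96, 6.25 and 6.32 log2 CPM with thymol and 6.04, 6.20 and 6.42 log2 CPM with DMSO. Rplp0, the scaffold of the stalk, lay between them at 8.44 ± 0.09 against 8.42 ± 0.07 log2 CPM (thymol against DMSO, SD, n = 6 per group). Rpl12 was the lowest, at 4.22 ± 0.30 and 4.17 ± 0.37 log2 CPM. Fold changes of the last 3 were between -0.002 and 0.053, each below its standard error.

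Rpl5 and Rpl11 bind the 5S rRNA, and the free complex of the 3 is known to inhibit MDM2 and so stabilise p53 when ribosome assembly fails. Both transcripts were scarce here. Rpl5 was at 3.04, 3.46 and 4.17 log2 CPM (lowest, median, highest) with thymol and 3.05, 3.84 and 4.09 with DMSO, and Rpl11 at 3.40, 3.59 and 3.87 against 3.54, 3.77 and 3.94. In Rpl11, 3 of 6 thymol libraries fell under the DMSO range, and in Rpl5 the groups overlapped. Their log2 fold changes were -0.16 ± 0.20 and -0.14 ± 0.18 (SE, n = 6 per group), with limma adjusted p = 0.84 for both. Among 17 target genes of p53 none passed the test, 2 had an unadjusted p under 0.05 (11.8%, the share in the whole table) and the median log2 fold change was 0.020. Of these Mdm2, the ubiquitin ligase of p53, had a log2 fold change of 0.13 with an adjusted p of 0.27. All 6 of its thymol libraries lay above the DMSO libraries, and 1.68% of the table had groups that did not overlap, in either direction. Fas, a death receptor, was at -0.39 (adjusted p = 0.37).

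Rpl4, Rpl17 and Rpl39 line the tunnel through which the new chain leaves the large subunit. Rpl4 ranked second in level, at 9.94, 10.17 and 10.43 log2 CPM with thymol and 9.83, 10.09 and 10.33 with DMSO (lowest, median, highest). Its log2 fold change was 0.099 ± 0.066 (limma SE, n = 6 per group), with adjusted p = 0.62 by limma. The unadjusted limma p was 0.14 with the mean-variance trend and 0.39 without it. Rpl39 was at 7.06 ± 0.08 and 7.02 ± 0.07 log2 CPM (SD, n = 6 per group), a difference of 0.037. Rpl17 was at 4.12, 4.32 and 4.76 log2 CPM with thymol and 3.17, 4.18 and 4.41 with DMSO, where the lowest DMSO library had 58 reads. Its log2 fold change of 0.32 ± 0.17 did not pass (adjusted p = 0.48, limma).

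In the small subunit, Rpsa, Rps14, Rps26 and Rps28 sit around the exit of the mRNA channel. Rps14 was at 9.67 ± 0.09 with thymol against 9.62 ± 0.04 log2 CPM with DMSO and Rps26 at 9.38 ± 0.08 against 9.35 ± 0.09 (SD, n = 6 per group). Rpsa, the laminin receptor precursor, was at 6.52 ± 0.15 against 6.56 ± 0.08 log2 CPM. The scarcest of the 4, Rps28, was at 2.60 ± 0.47 against 2.76 ± 0.28 log2 CPM. Fold changes in these 4 genes ran from -0.16 to 0.050 and the intervals of all 4 included 0. Rps20, a protein of the head of the small subunit, was at 9.85 ± 0.07 against 9.84 ± 0.06 log2 CPM, with a 95% interval of -0.08 to 0.11 for its fold change.

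Rpl23 and Rpl27a, both under an unadjusted p of 0.05, were named after their values were seen. Without the mean-variance trend their unadjusted limma p-values were 0.079 and 0.051. Rpl23 (chromosome 11, 97777527 to 97782437, minus strand, GRCm38) encodes a large-subunit protein that can also bind MDM2. It was at 7.56, 7.66 and 7.87 log2 CPM with thymol and 7.13, 7.59 and 7.73 with DMSO (lowest, median, highest). 2 thymol libraries lay above every DMSO library and 2 DMSO libraries, numbers 4 and 6, lay well below the rest at 7.13 and 7.32. The log2 fold change was 0.20 ± 0.074 (SE, n = 6 per group), and the limma adjusted p of 0.19 was the smallest of all 73.

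Rpl27a (chromosome 7, 109519147 to 109522367, plus strand), a large-subunit protein, was at 6.80, 6.92 and 7.08 log2 CPM with thymol and 6.58, 6.80 and 6.87 with DMSO. Here 4 of 6 thymol libraries lay above every DMSO library. The log2 fold change was 0.17 ± 0.073 (SE, n = 6 per group), with a limma adjusted p of 0.31.

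The largest positive estimates belonged to Rpl36, Rpl10, Rps12, Rpl17 and Rps4x, and Rpl7a, Rpl5, Rps28 and Rps27rt were among the 5 largest negative ones. Rpl36, a large-subunit protein and the scarcest of all members, was at 1.93, 2.22 and 2.81 log2 CPM with thymol and -0.22, 1.98 and 2.60 with DMSO. The DMSO library at -0.22 rested on 4 reads, and the remaining 11 libraries overlapped. Its log2 fold change of 0.61 ± 0.36 (SE, n = 6 per group) had an adjusted p of 0.54 by limma. Rpl10, which joins the large subunit late in its maturation, was at 2.02, 2.59 and 2.93 log2 CPM with thymol and 1.71, 2.04 and 2.496 with DMSO. Of its 6 thymol libraries 4 lay above the DMSO range, on 34 to 47 reads (log2 fold change 0.46 ± 0.29, adjusted p = 0.58). Rps12 (0.34) and Rps4x (0.31), both small-subunit proteins, had overlapping groups on means of 53.2 and 32.2 reads.

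Downward, Rpl7a, a large-subunit protein, was at 1.77, 2.55 and 2.93 log2 CPM with thymol and 1.86, 2.81 and 3.16 with DMSO, a log2 fold change of -0.21 ± 0.28 (SE, n = 6 per group) on a mean of 39.2 reads. Rps27rt, a retrocopy of Rps27, was at -0.15 ± 0.21. Rps29, a zinc-binding protein of the small subunit and one of the 4 lowest in level, was at 2.19 ± 0.31 against 2.26 ± 0.58 log2 CPM (thymol against DMSO, SD). All of these groups overlapped.

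Several core ribosomal proteins have paralogs, and a swap between a pair would alter the make-up of ribosomes without altering the total. 3 such pairs were measured on both sides. The log2 ratio of Rpl22l1 to Rpl22 was -3.08 ± 0.19 in thymol and -3.03 ± 0.18 in DMSO libraries (SD, n = 6 per group), a difference of -0.047 (two-sided exact permutation test over all relabellings, p = 0.669). For Rpl39l to Rpl39 it was -3.12 ± 0.36 and -3.24 ± 0.39, a difference of 0.12 (exact permutation p = 0.556). For Rpl7l1 to Rpl7 it was 3.08 ± 0.26 and 3.04 ± 0.55, a difference of 0.036 (exact permutation p = 0.890), with the paralog, a ribosome assembly factor in its own right, the more abundant of the pair as counted. Adjusted over the 3 pairs each p became 0.890, and the smallest p this design allows is 0.00216. Paralogs whose parent gene was not analysed here, Rps27l (log2 fold change 0.045) and Rpl36al (-0.035), had overlapping groups, as had Rps19bp1 (0.010).

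Together the 73 genes took 1.67 ± 0.044% of the reads of a library with thymol and 1.61 ± 0.058% with DMSO (SD, n = 6 per group). The thymol libraries ran from 1.62% to 1.72% and the DMSO libraries from 1.54% to 1.69%, so the groups overlapped. Among the even-numbered libraries, thymol (1.62% to 1.71%) lay above DMSO (1.54% to 1.58%), and among the odd-numbered ones the groups overlapped. Between libraries of the same number, thymol minus DMSO was above 0 for 6 of 6 numbers, from 0.035 to 0.137 percentage points. Whether the numbers pair the libraries is not given in the labels. The difference between group means, 0.065 percentage points, was 4.06% of the DMSO mean, and no test was made of it because it sums over the chosen genes. The large-subunit genes held 0.882 ± 0.029% against 0.841 ± 0.041%, and the small-subunit genes 0.790 ± 0.017% against 0.767 ± 0.018%.

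**Figure D3:**
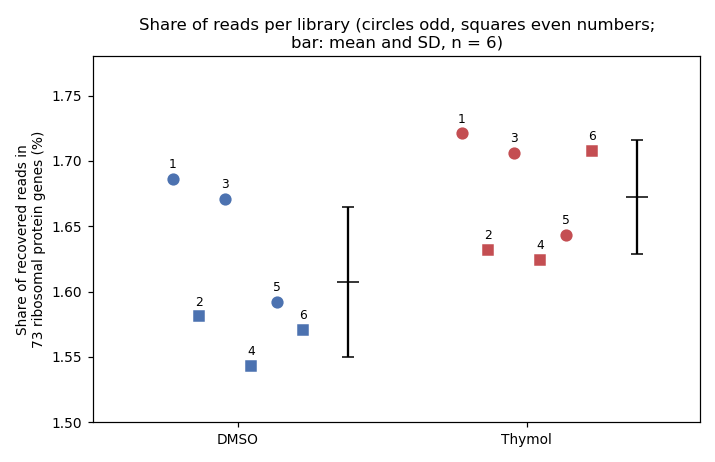
Share of recovered reads that fell in the 73 ribosomal protein genes in each library (%, vertical axis, not starting at 0), by treatment, with circles for odd and squares for even library numbers and bars for the mean and SD (n = 6). The ranges, 1.54% to 1.69% for DMSO and 1.62% to 1.72% for thymol, overlap, and the lowest DMSO value is library 4.

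The values were also read by library number. The library names in the labels list odd before even numbers within each group, and the labels do not say what the order stands for. The share of reads was 1.65% in odd and 1.56% in even DMSO libraries, and 1.69% in odd and 1.65% in even thymol libraries (means, n = 3 each). In DMSO, 9 of the 73 genes (12.3%) had odd and even libraries that did not overlap, 8 of them higher in the odd ones (11%), against 14.6% and 7.2% of all genes. The 8 were Rpl4, Rpl8, Rpl21, Rpl26, Rpl34, Rps15, Rps15a and Rps19. With thymol there were 5 (6.85%), against 8.68% of all genes. What sets odd and even libraries apart was not tested.

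Within the even libraries alone, 3 against 3, 2 of the 73 genes (2.74%) passed the limma test, both higher with thymol, against 1.56% of all genes in either direction and 0.514% higher. The log2 fold change there was 0.21 for Rpl4 (adjusted p = 0.039) and 0.35 for Rpl23 (adjusted p = 0.018). Within the odd libraries alone 0 of 73 passed, against 0.654% of all genes, and the same 2 genes were at -0.014 and 0.051. The difference between the odd and even effects, a test added with the data known, passed for 0 of 73 genes and for 0 genes of the table after adjustment, and at an unadjusted p under 0.05 for 6 of 73 (8.22%) against 4.96% of all genes. For Rpl4 the 2 effects differed by -0.22 (limma interaction adjusted p = 0.997) and for Rpl23 by -0.30 (adjusted p = 0.992). A thymol effect that differs between odd and even libraries was thus not shown for either gene.

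**Figure D4:**
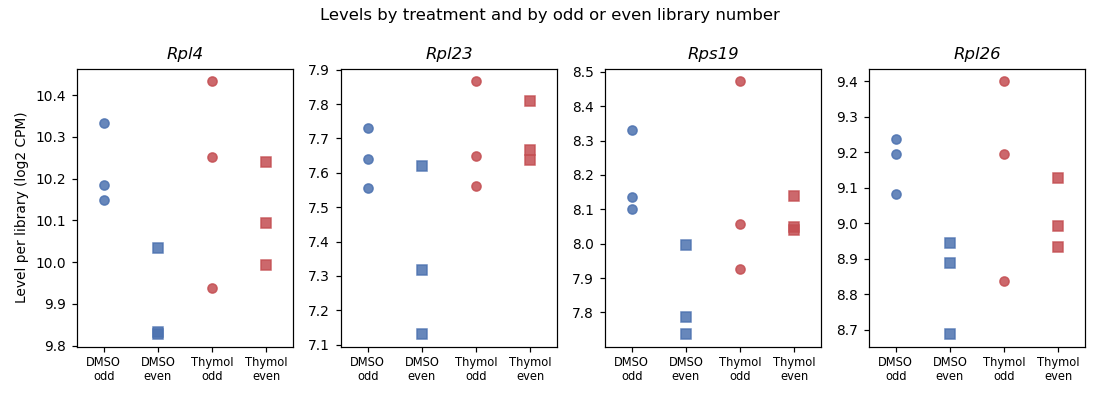
Level (log2 CPM) of Rpl4, Rpl23, Rps19 and Rpl26, chosen after their values were seen, in DMSO and thymol libraries split by odd (circles) and even (squares) number, 3 libraries per column. In Rpl4, Rps19 and Rpl26 all 3 even DMSO libraries lie below all 3 odd ones, and in all 4 panels the range of the odd thymol libraries covers that of the even ones.

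Lists of genes that act with the ribosome were read the same way. Of 310 genes in 10 lists, 1 passed the limma test, higher with thymol, and 25 (8.06%) had an unadjusted p under 0.05, against 2.22% and 11.8% of all genes. The 1 gene was Mrps6, a small-subunit protein of the mitochondrial ribosome, at 7.83 ± 0.13 log2 CPM in thymol and 7.54 ± 0.12 in DMSO libraries (SD, n = 6 per group), with 5 of 6 thymol libraries above every DMSO library. Its log2 fold change was 0.29 ± 0.065 (SE; adjusted p = 0.0043), and it was 0.27 in the odd (adjusted p = 0.27) and 0.31 in the even libraries (adjusted p = 0.037). Without the mean-variance trend its adjusted p was 0.154, so that no gene of the 310 passed. The other 73 of the 74 mitochondrial ribosomal proteins did not pass, and the list's median log2 fold change was 0.0085. Of the 310 genes, 182 had a positive log2 fold change. These were 33 of 44 translation initiation factors and 61 of 93 ribosome biogenesis factors, but 40 of 74 mitochondrial ribosomal proteins. Positive values were 9 of 18 in the RNA polymerase I machinery and 8 of 20 in mTORC1 and TOP mRNA control. Nascent chain and targeting factors had 4 of 13. No test was made of these counts.

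Outside the structural list, Rack1, the scaffold protein of the small subunit that binds protein kinase C, was at 9.97 ± 0.05 against 9.97 ± 0.04 log2 CPM, and Fau, made as a fusion of a ubiquitin-like protein with ribosomal protein eS30, at 3.51 ± 0.26 against 3.36 ± 0.27 (SD, n = 6 per group). None of 44 translation initiation factors passed, with a median log2 fold change of 0.034 and the smallest p in Eif3b (0.15, adjusted p = 0.36) and Eif4g2 (0.090, adjusted p = 0.47). None of 11 elongation and termination factors passed, with Eef1b2 at 0.087 and Eef2, the translocase, at 0.054. Of 13 nascent chain and targeting factors 0 passed, and 2 had an unadjusted p under 0.05, Srp72 of the signal recognition particle (0.18, adjusted p = 0.21) and Nacad (-0.45, adjusted p = 0.41). Over all 12 libraries these lists of factors thus had no gene past the test in either direction. In the even-numbered libraries alone Srp72 passed (log2 fold change 0.34, limma adjusted p = 0.0085), and in the odd-numbered ones it was at 0.014.

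Assembly gave the same count. Of 93 ribosome biogenesis factors 0 passed and 11 (11.8%) had an unadjusted p under 0.05, the same share as in the whole table, with a median log2 fold change of 0.051. Imp3, a component of the U3 small nucleolar ribonucleoprotein, was at 0.27 ± 0.085 (adjusted p = 0.088) and Wdr43, another factor of the small-subunit processome, at 0.21 ± 0.068 (adjusted p = 0.10; limma, SE, n = 6 per group). Of 18 genes of the RNA polymerase I machinery, which transcribes rRNA, 0 passed and 4 (22.2%) had an unadjusted p under 0.05, among them Taf1d (0.26, adjusted p = 0.096) and Polr1b (0.79, adjusted p = 0.29), the latter with 5 reads in its lowest library. Of 20 genes of mTORC1 and TOP mRNA control 0 passed, also at the unadjusted p, with Deptor, an inhibitor of mTOR, at -0.34 (adjusted p = 0.50) and Cnbp at 0.093 (adjusted p = 0.63). Of 19 genes of ribosome rescue and quality control 0 passed, with Eif2ak4, the kinase GCN2, at 0.25 (adjusted p = 0.48) and Ascc1 at -0.27 (adjusted p = 0.56).

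Ribosomal protein genes have many processed pseudogenes, and a read that fits several places can be dropped or split by the counting, whose setting for such reads is not given in the sources used here. In the last 200 bases of each transcript, every stretch of 50 bases was looked up in the transcripts of all other annotated genes. For 27 of the 73 genes no stretch recurred elsewhere, and these had a median level of 6.85 log2 CPM. For 18 genes some but under 50% recurred, at a median of 7.19 log2 CPM, and for 28 genes 50% or more recurred, at a median of 5.37 log2 CPM. 40 genes shared stretches with annotated pseudogenes. Rpl10 shared 100% of its stretches, Rps12 91.4% and Rpl36 82.1%, with 12, 23 and 11 other genes, of which 11, 21 and 11 were pseudogenes. Rpl5 also shared 100%, but with 1 other gene that is not annotated as a pseudogene. The levels of these genes are therefore uncertain, while Rpl23, Rpl27a, Rpl4 and Rps20 shared none. Median log2 fold changes were 0.045, 0.060 and 0.036 in the 3 classes. The part of shared sequence in the low levels was not tested.

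**Figure D5:**
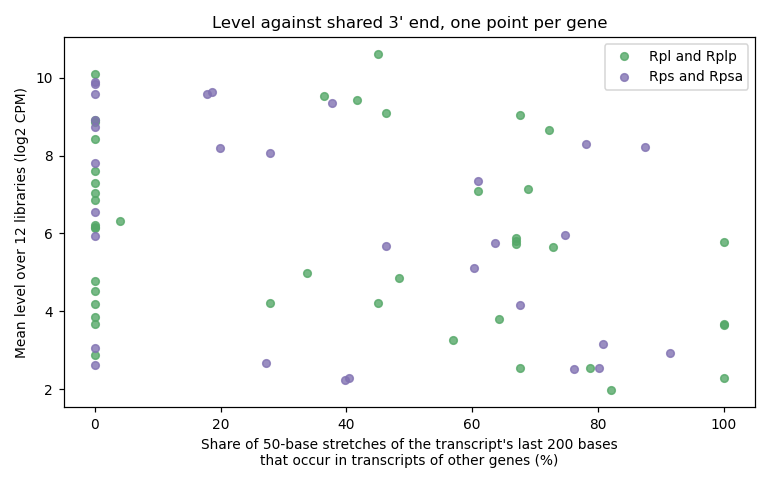
Mean level over 12 libraries (log2 CPM, vertical axis) against the share of 50-base stretches of the last 200 bases of the transcript that also occur in transcripts of other genes (%, horizontal axis), with 1 point per ribosomal protein gene. Genes at 0% span 2.62 to 10.11 log2 CPM, and no gene at 50% or more lies above 9.04 log2 CPM.

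The TOP tract can be looked for in the DNA around the annotated start of transcription. Starts from RefSeq (GRCm38.p6) were matched by symbol for 55 of the 73 genes, and in the 40 bases from 20 before to 20 after the start, on the transcribed strand's sense sequence only, a tract was counted as a run of at least 8 bases that are all C or T, in any of the starts listed for a gene. It was found for 26 of 55 genes (47.3%), against 18.4% of 27025 genes with a start, 19.5% of the genes of the table and 18.5% (12 of 65) of mitochondrial ribosomal proteins. A run of this kind is a description of the letters and does not show where transcription begins in these cells. The windows below are printed because they carry the longest tracts or belong to genes described above, with the tract in capitals and the annotated start at the base after the first 20 bases. In GRCm38 the windows lie at chr7:109519175-109519214 for Rpl27a, chr9:64173367-64173406 for Rpl4, chr2:26910787-26910826 for Rpl7a, chr7:141447631-141447670 for Rplp2, chr7:118116128-118116167 for Rps15a, chr10:128626487-128626526 for Rps26, chr3:28805488-28805527 for Rpl22l1, chr11:97782420-97782459 for Rpl23, chr17:46782637-46782676 for Rpl7l1 and chr15:80264287-80264326 for Rps19bp1, the strand being minus for Rps15a, Rps26, Rpl23, Rpl7l1 and Rps19bp1 and plus for the others.
Rpl27a: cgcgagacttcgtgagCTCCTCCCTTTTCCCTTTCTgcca
Rpl4: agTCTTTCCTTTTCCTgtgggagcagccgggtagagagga
Rpl7a: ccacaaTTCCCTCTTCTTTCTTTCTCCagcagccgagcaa
Rplp2: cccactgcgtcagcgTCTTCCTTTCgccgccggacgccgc
Rps15a: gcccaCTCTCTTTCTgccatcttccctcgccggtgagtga
Rps26: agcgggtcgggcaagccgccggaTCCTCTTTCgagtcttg
Rpl22l1: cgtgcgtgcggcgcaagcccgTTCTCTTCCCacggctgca
Rpl23: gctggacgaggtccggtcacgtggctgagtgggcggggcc
Rpl7l1: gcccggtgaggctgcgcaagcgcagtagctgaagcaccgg
Rps19bp1: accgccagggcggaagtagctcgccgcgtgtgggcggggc

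The first 7 windows hold a tract and the last 3 do not. The tracts of Rpl4 and Rps15a ended before the annotated start, and those of Rps26 and Rpl22l1 began after it. Rpl7a had the longest, of 21 bases, and Rpl27a and Rpl34 had 20. Of the 2 genes that passed in the even libraries alone, Rpl4 had this tract of 14 bases and Rpl23 had no run over 3 in the window. Whether either mRNA carries a TOP tract in these cells was not tested.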

How the data were processed

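RNA of MAFs (6 thymol and 6 DMSO libraries) was sequenced from its 3′ ends (QuantSeq FWD). Per the labels and the study's methods, the authors aligned reads with STAR 2.5.3 to GRCm38, counted them with HTSeq 0.6.1, removed genes with few reads, scaled libraries and deposited log2 CPM values with a small prior count. 100% of the low values gave whole reads within 0.02 reads, so library totals were recovered, at a mean of 6798339 reads. Standard errors and intervals of fold changes come from limma, which draws each gene's spread between libraries toward a trend over all genes.

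Groups and library numbers came from the labels. Thymol was compared with DMSO by limma 3.58.1 (R 4.3.3) with a mean-variance trend on all 10697 genes, tested on simulated data, with Benjamini-Hochberg adjustment over all genes. This replaced a count test because log2 values, not counts, were deposited. Paralog ratios were compared by an exact permutation test (scipy 1.17.1). Named genes were those past the threshold, those whose groups did not overlap, the 5 largest fold changes each way, the 4 highest and 4 lowest levels, members of lists by role and, in other lists, genes past the threshold or the 2 smallest p. Some members are counted but not reported here by name. Members and lists were chosen with earlier results of these data known. Pyrimidine tracts were read from RefSeq starts and shared 3′ ends from GENCODE transcripts. Alternatives were no trend, voom on recovered reads, other scalings, a pseudocount of 10, a filter at a mean of 5 log2 CPM, odd or even libraries, a replicate block and leaving out each library.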

Additional observations from a re-analysis of the deposited data

Results flagged for a closer look

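Each of these is a library that stood farther from the other 5 of its group than a gap test at the 95% level allows, and 7 of the 126 groups tested did so, where chance gives about 1 in 20. Rpl17 in DMSO library 4 was at 3.17 log2 CPM (58 reads), with the nearest other DMSO library at 3.96. Rpl22l1 in thymol library 6 was at 6.23 log2 CPM, with the nearest at 5.81. Rpl5 in DMSO library 1 was at 3.05 log2 CPM (60 reads), with the nearest at 3.74. Rplp1 in DMSO library 1 was at 10.72 log2 CPM, with the nearest at 10.57. Rps4x in thymol library 4 was at 2.13 log2 CPM (24 reads), with the nearest at 2.47. Polr1b in DMSO library 2 was at 0.012 log2 CPM (5 reads), with the nearest at 1.90. Srp72 in thymol library 5 was at 7.68 log2 CPM, with the nearest at 7.98. The cause of these gaps was not tested.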

How the results depend on the processing

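No ribosomal protein gene passed the threshold in any alternative but 1: 2 passed in the even-numbered libraries alone. Leaving out each library in turn gave 0 of 73 each time, and their median log2 fold change ran from 0.036 to 0.055, or from 0.035 to 0.074 in the other alternatives. The difference in share of reads ran from 0.041 to 0.090 percentage points. Genes of the whole table past the threshold numbered 57 without the mean-variance trend, 70 in the odd-numbered libraries alone and 172 to 270 without 1 library. Translation and ribosome assembly genes past the threshold numbered 0 without the trend and in the odd-numbered libraries alone, 3 in the even-numbered ones and 1 to 3 without 1 library, with 3 without thymol library 4 or 5 and 2 without DMSO library 5. Same-numbered libraries correlated at -0.051 to 0.27, over 0.1 in 2 of 6 pairs, and 2 of 6 correlated best with their own number. These values cannot settle whether the numbers pair the libraries, which the labels do not say. With the replicate number as a block 332 genes passed, against 238 without it, and 0 ribosomal protein genes.

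Of 790 values of the 35 named ribosomal protein genes, 743 kept direction and side of the threshold, 2 came past it and 45 changed sign. In the odd-numbered libraries alone the log2 fold changes of Rpl22l1 (-0.11), Rpl26 (-0.028), Rpl39l (-0.20), Rpl4 (-0.014), Rps14 (-0.0098), Rps19 (-0.037) and Eif2ak4 (-0.072) and the ratio of Rpl39l to Rpl39 (-0.28) changed sign. In the even-numbered ones those of Rpl36al (0.11), Rpl39 (-0.0098), Rpl7l1 (0.091), Rplp2 (0.028), Rps19bp1 (-0.091), Rps26 (-0.020), Rps27l (-0.011), Rps29 (0.016), Rpsa (0.10) and Rack1 (0.017) and the ratio of Rpl22l1 to Rpl22 (0.067) did. So did Rps19bp1 with median centring (-0.00117), Rplp2 by voom (0.0078) and quantile normalization (0.00291), and Rack1 by quantile normalization (0.032). Leaving out 1 library, ranges crossed 0 for Rpl22l1 (-0.0625 to 0.050), Rplp2 (-0.035 to 0.048), Rps29 (-0.23 to 0.056), Rack1 (-0.018 to 0.00534), Rps19bp1 (-0.026 to 0.051), Rpl36al (-0.12 to 0.077), Rpl12 (-0.072 to 0.13), Rplp0 (-0.00716 to 0.044), Rps20 (-0.00366 to 0.039), Rpl7l1 (-0.096 to 0.00897), Rpsa (-0.0756 to 0.0041), Rps28 (-0.28 to 0.000948) and the ratio of Rpl7l1 to Rpl7 (-0.13 to 0.16). The causes were not tested. Depth limits the scarce genes, whose intervals span up to -0.89 to 1.34.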
